A study of Mus musculus with 3 samples.

Results

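T and NK lymphocytes were the rare cells of this brain data set that carried transcripts of the T cell receptor complex or of the cytotoxic granule gene Nkg7. A barcode was taken as one of them when it had at least 500 detected genes, at most 10% of its unique molecular identifiers (UMIs) from mitochondrially encoded genes, at least 2 UMIs of Cd3d, Cd3e and Cd3g together or at least 3 UMIs of Nkg7, and less than 1% of its UMIs from S100a8 and S100a9. These cells were thus chosen by measured UMI counts, and the values that chose them are a description. The rule found 50 of 11267 cells that passed the filters on genes and mitochondrial UMIs, a share of 0.444%. The data came from brain cells of mice that all carried an Apoe knockout, sorted as CD45int CD11b+ and sequenced with a droplet-based 3′ single-cell kit. One group received sham induction and PBS, another received induction of a neuromyelitis optica spectrum disorder (NMOSD) model and a control peptide, and the third received NMOSD induction and the peptide APOE130-149. Each group was 1 library from a pool of 4 mice collected at day 4. There was no replicate library, so no difference between groups could be tested. Every interval given is an exact 95% interval that covers counting error only, and not the spread between mice, libraries or cells.

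T cells recognise peptides on MHC molecules through a T cell receptor whose α and β chains signal through the CD3 chains, encoded by Cd3d, Cd3e and Cd3g together with Cd247. The coreceptor CD8 marks most cytotoxic T cells and CD4 marks helper and regulatory T cells, while natural killer (NK) cells lack a rearranged receptor and read activating and inhibitory receptors such as those of the Klr families. Both kinds of lymphocyte can carry Nkg7, granzymes and the chemokine Ccl5. Few of them are present in the healthy brain, where they stand mainly at its borders, and they enter it from blood in inflammation.

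The 3 CD3 genes that chose most of the cells lie together on mouse chromosome 9. In the GRCm38 annotation Cd3g (ENSMUSG00000002033, 44969572 to 44980431, minus strand) and Cd3d (ENSMUSG00000032094, 44981786 to 44987339, plus strand) are transcribed away from each other from starts 1355 bases apart, and Cd3e (ENSMUSG00000032093, 44998740 to 45009627, minus strand) follows beyond Cd3d. Their promoters are shown because the rule used these genes, and their presence in the chosen cells was in part set by that choice. The sequences are the 200 bases before each RefSeq start on GRCm38.p6, read 5′ to 3′ on the gene's strand, for Cd3g at chr9:44980432-44980631, Cd3d at chr9:44981586-44981785 and Cd3e at chr9:45009612-45009811. Capitals mark the letters AGGAAG of an ETS factor core or their reverse complement CTTCCT.
Cd3g: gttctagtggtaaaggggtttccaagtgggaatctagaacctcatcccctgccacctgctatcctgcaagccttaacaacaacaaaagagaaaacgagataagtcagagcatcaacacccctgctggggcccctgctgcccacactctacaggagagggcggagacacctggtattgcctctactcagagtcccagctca
Cd3d: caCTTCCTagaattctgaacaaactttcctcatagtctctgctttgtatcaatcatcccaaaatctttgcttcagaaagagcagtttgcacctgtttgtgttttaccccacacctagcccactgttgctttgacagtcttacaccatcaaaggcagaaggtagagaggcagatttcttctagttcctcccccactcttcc
Cd3e: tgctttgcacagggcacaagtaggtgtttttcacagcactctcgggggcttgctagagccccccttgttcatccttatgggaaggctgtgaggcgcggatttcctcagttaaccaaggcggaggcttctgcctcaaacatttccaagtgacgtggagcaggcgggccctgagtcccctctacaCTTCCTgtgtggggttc
The ETS letters stood once in the Cd3d window and once in the Cd3e window, and 24.7% of the 32851 RefSeq windows of the same length held them on either strand. Neither TGTGGT of the RUNX core, present in 11.2% of all windows, nor TCACAC of the T-box, present in 9.85%, was found on either strand in the windows of Cd3g, Cd3d or Cd3e, nor of Cd8a on chromosome 6. A match or its lack is a statement about these letters in these windows alone.

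Lymphocytes were nearly absent from the sham library and made up close to the same share of both NMOSD libraries. The shares are of cells sorted as CD45int CD11b+, so they do not give the number of lymphocytes in the brain. The sham library held 1 among 4231 cells (0.0236%, interval 0.000598% to 0.132%). The control peptide library held 35 among 5011 cells (0.698%, 0.487% to 0.970%). The APOE130-149 library held 14 among 2025 cells (0.691%, 0.378% to 1.16%). The interval of the sham share lay below the intervals of both NMOSD shares, which overlapped each other widely. The share was 29.6 times that of sham with control peptide (interval of the ratio 4.97 to 1200) and 29.3 times with APOE130-149 (4.45 to 1237), both against the same single sham cell. Without the limit on S100a8 and S100a9 the shares were 0.0945% in sham, 0.838% with control peptide and 0.840% with APOE130-149, and with 1 CD3 UMI enough they were 0.236%, 1.06% and 1.43%. The ratio of APOE130-149 to control peptide was 0.990, with an interval from 0.492 to 1.89. Median depth of the cells passing filters was 7124 UMIs in sham, 7848 with control peptide and 9991 with APOE130-149. With each cell thinned to 1500 UMIs, which left out 788, 246 and 119 shallower cells of sham, control peptide and APOE130-149, the rule found 0 of 3443, 25 of 4765 and 8 of 1906 cells. Induction and the peptide given with it cannot be told apart in the comparisons with sham.

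**Figure D1:**
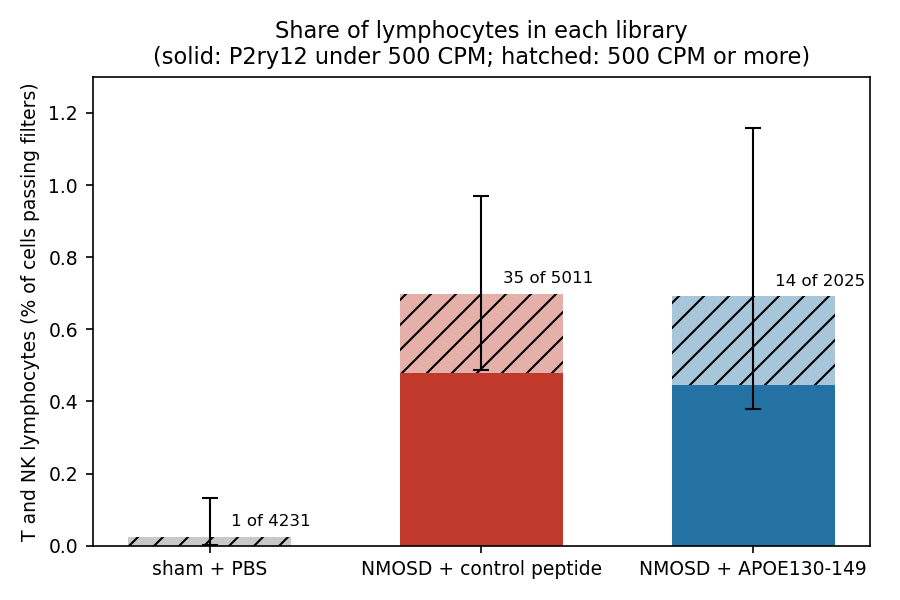
The bars give T and NK lymphocytes as a percentage of the cells passing filters in each of the 3 libraries, solid for cells with P2ry12 under 500 CPM and hatched for the others, with exact 95% Clopper-Pearson intervals of the whole share. Both NMOSD libraries stand near 0.69%, and the sham library holds 1 cell.

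The microglial receptor gene P2ry12 set the 50 cells apart into a P2ry12-low and a P2ry12-high set. Levels are in CPM, a gene's UMIs scaled to 1000000 UMIs of the cell or of the summed cells. By this measure 33 cells were under 500 CPM, 23 of them with no P2ry12 UMI at all, and 17 cells were at or above it. The P2ry12-low cells were 0 of the 1 sham cell, 24 of the 35 control peptide cells and 9 of the 14 APOE130-149 cells. They made up 0.479% of control peptide cells (0.307% to 0.712%) and 0.444% of APOE130-149 cells (0.203% to 0.842%). For the sham library 0 of 4231 cells, taken at a floor of 3 cells, allows a share of up to 0.0709%, and the exact 95% upper limit was 0.0871%. Against the floor the control peptide share was at least 6.75-fold higher and the APOE130-149 share at least 6.27-fold higher, and the exact lower limits of these ratios were 5.08 and 4.12. The 500 CPM line is a range and not a cell type, and 5 cells lay between 250 and 1000 CPM.

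The P2ry12-high cells carried lymphocyte and microglial transcripts in the same barcode. Their P2ry12 level had a median of 1665 CPM in the control peptide library and 2004 CPM in the APOE130-149 library, against 2558 and 2809 CPM in microglia reference cells of the same libraries. Microglia reference cells are 9505 other cells of the 3 libraries that passed the filters and had P2ry12 at or above 1000 CPM. They also had less than 1% of their UMIs from S100a8 and S100a9. The cuts at 500 CPM for P2ry12-high cells and 1000 CPM for reference cells fix part of the difference in P2ry12. The 12 microglia markers summed to 21664 CPM in the P2ry12-high cells with control peptide, 16812 CPM with APOE130-149 and 16713 CPM in the sham cell, and to 29700 CPM in reference cells. With APOE130-149, 1 of the 5 P2ry12-high cells held 56066 of their 75482 UMIs. The median share of these markers per P2ry12-high cell had the opposite order, 2.06% with control peptide and 2.56% with APOE130-149. In the P2ry12-low cells the same markers summed to 687 CPM with control peptide and 1019 CPM with APOE130-149.

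Depth moved with the P2ry12 class in the control peptide library. Its 11 P2ry12-high cells had a median of 22963 UMIs, with 8 of them above 2 times the median of the library, while its 24 P2ry12-low cells had a median of 8291 UMIs, with 4 above that line. The 5 P2ry12-high cells of the APOE130-149 library differed from this, with a median of 5137 UMIs against 7409 UMIs in its 9 P2ry12-low cells, and 1 of the 5 stood above 2 times the library median. No doublet caller was run and no cell was removed as a doublet. Whether a P2ry12-high barcode held a lymphocyte joined to a microglial cell or free RNA of another cell was not tested. Levels are therefore given for the P2ry12-low cells first. The libraries shared 9 barcodes between sham and control peptide, 0 between sham and APOE130-149 and 3 between control peptide and APOE130-149, and none of the shared barcodes was a lymphocyte.

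**Figure D2:**
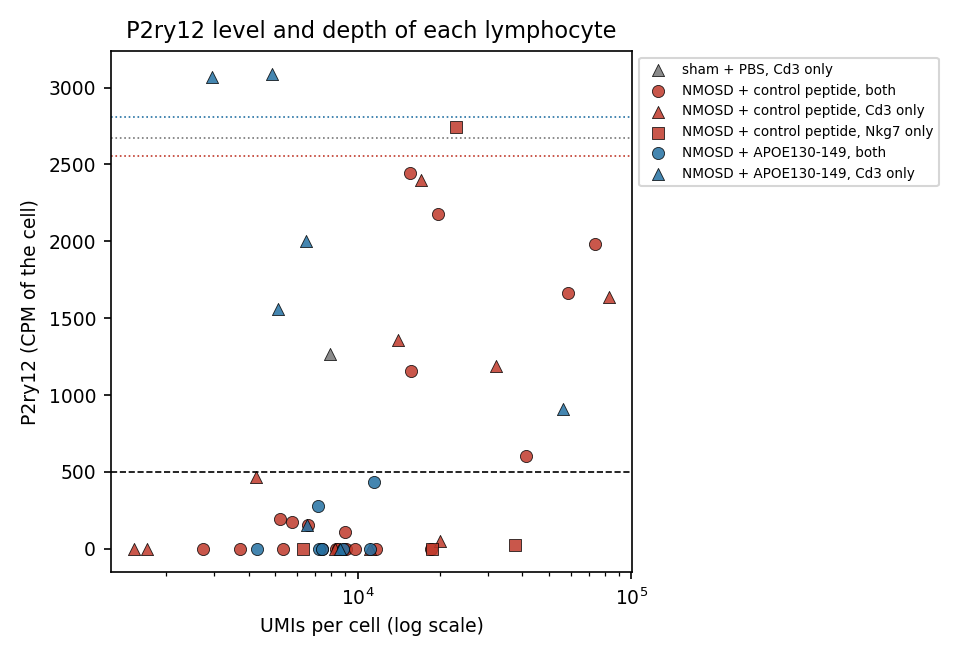
Each point is 1 lymphocyte, placed by its UMIs (log axis) and its P2ry12 level in CPM, coloured by library and shaped by the criterion it met; the dashed line is 500 CPM and the dotted lines are the medians of microglia reference cells of each library. Most P2ry12-high cells of the control peptide library stand to the right of the P2ry12-low cells, and 4 of the 5 with APOE130-149 do not.

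The only sham cell was P2ry12-high. It had 7898 UMIs, with 7 UMIs of the CD3 genes, 2 of Nkg7, 2 of Trac, 7 of Trbc2, 1 of Cd4 and 16 of Ccl5. Its P2ry12 level of 1266 CPM was below the sham reference median of 2671 CPM.

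The choice of cells rested on few UMIs at its edges. Of the 50 cells, 3 had exactly 2 CD3 UMIs with Nkg7 under 3 (2 with control peptide, 1 with APOE130-149). One control peptide cell had exactly 3 Nkg7 UMIs with CD3 under 2. Another 6 cells, 2 with control peptide and 4 with APOE130-149, had 3 to 5 CD3 UMIs with Nkg7 under 3, at a median P2ry12 level of 1781 CPM. Just outside, 42 cells had 1 CD3 UMI, 9 in sham, 18 with control peptide and 15 with APOE130-149. Of these 42 cells only 2 had P2ry12 under 500 CPM, and their median P2ry12 level was 2384 CPM. A further 2 cells had 2 Nkg7 UMIs. None of the cells that met the UMI rule was lost to the filters on genes or mitochondrial UMIs.

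Most P2ry12-low cells carried markers of T cells, as far as genes outside the rule can show it. A UMI of a receptor constant region, Trac, Trbc1 or Trbc2, was present in 32 of 33 cells, at a median depth of 8258 UMIs per cell. For Trac alone it was 29 of 33, against 0.0316% of microglia reference cells at a median of 7965 UMIs. Trbc1 and Trbc2 had a UMI in 0.200% and 0.221% of reference cells. The 32 cells include 2 control peptide cells with UMIs of Ncr1 and Klrb1c and none of the CD3 genes or Trac. A UMI of Trbc1 or Trbc2 does not by itself make a cell a T cell. By criterion, 22 of the 33 met both the CD3 and the Nkg7 threshold, 8 the CD3 threshold alone and 3 the Nkg7 threshold alone. All of Cd3d, Cd3e and Cd3g were detected in 25 of 33 cells, 17 of 24 with control peptide and 8 of 9 with APOE130-149. The criteria and the CD3 genes belong to the rule, so these counts only describe the choice of cells.

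The cells also differed from microglia in the genes of the sorting gate. Itgam, which encodes CD11b, had a UMI in 5 of 24 P2ry12-low cells with control peptide and in 0 of 9 with APOE130-149, against 94.4% of reference cells. Its level was 23.1 CPM over the 33 cells and 932 CPM in reference cells. Ptprc, which encodes CD45, was detected in 33 of 33 cells at 1103 CPM, against 455 CPM in reference cells. In the P2ry12-high set Itgam was detected in 17 of 17 cells, at 690 CPM. How the P2ry12-low cells came through the sorting gate was not tested. Apoe, the gene targeted in all 3 groups, had 3 UMIs in the P2ry12-low cells and stood between 77.6 and 123 CPM in reference cells of the 3 libraries. Where the deletion lies relative to these 3′ tags is not given in the sources used here, so this level does not check the knockout.

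Against microglia reference cells, 712 of 3813 genes (18.7%) were at least 2-fold higher in the P2ry12-low cells and 1335 (35%) at least 2-fold lower, a contrast that the choice of cells itself uses and that supports no statement about them. Among the 25 genes with the highest ratio, the receptor complex was represented by Trac (456 CPM against 0.0287), Trbc1, Trbc2, Cd3d, Cd3e and Cd3g. Signalling molecules in this group included the adaptor Skap1 (228 against 0.0479 CPM), Sh2d1a, Sh2d2a and the scavenger-type receptor Cd6. The coreceptor genes Cd8a and Cd8b1 stood at 360 and 429 CPM against 0.0383 and 0.0670 CPM. The transcription factors in this group were Bcl11b, which keeps T cell identity, and Tcf7, which is known from naive and memory T cells, at 188 and 126 CPM. Effector genes were Nkg7, Gzma, Gzmb, Gzmk and the chemokine Xcl1. The others were the lymphocyte GTPases Gimap3, Gimap4 and Gimap7, the membrane protein Ms4a4b at 1724 CPM, and the inhibitory receptor chain Klrc1.

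Coreceptor transcripts split the P2ry12-low cells. Cd8a or Cd8b1 was detected in 15 of 33 cells, 11 of 24 with control peptide and 4 of 9 with APOE130-149, and Cd8a was detected in 0.0421% of reference cells. Cd4 was detected in 6 of 33 cells, 3 in each library, and in 0.694% of reference cells. No cell among the 33 or among the 17 P2ry12-high cells had both. Another 9 cells met the CD3 threshold with neither coreceptor, 7 with control peptide and 2 with APOE130-149. Cd4 counts were at most 3 UMIs per cell, so at this depth a cell without a Cd4 UMI cannot be called Cd4-negative.

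Cells with and without a Cd8 UMI were then set side by side. All 15 cells with a Cd8 UMI had at least 3 Nkg7 UMIs, a UMI of Ccl5 and a UMI of Trac. Their Ccl5 level had a lowest value of 561 CPM, a median of 7253 CPM and a highest value of 23786 CPM. Among the 15 cells of the CD3 criterion without a Cd8 UMI, 7 had a Ccl5 UMI, with a median of 0 and a highest value of 4204 CPM. The ranges overlapped between 561 and 4204 CPM. Depth differed too, with medians of 8881 UMIs with Cd8 and 6529 UMIs without. After thinning of every cell to 1500 UMIs, Ccl5 was still found in 15 of 15 cells with Cd8 and in 6 of 15 without. In reference cells 19.0% had a Ccl5 UMI, and 6.13% after thinning. Cxcr6, a chemokine receptor of effector and tissue-resident T cells, was found in 13 of 15 cells with Cd8 and 5 of 15 without, and after thinning in 10 of 15 and 4 of 15. Klrd1, the partner chain of NKG2 receptors, was found in 12 of 15 and 3 of 15 cells, and after thinning in 4 of 15 and 2 of 15. Gzmk was found in 7 of 15 and 1 of 15 cells, Gzmb in 7 of 15 and 2 of 15, and Xcl1 in 5 of 15 and 3 of 15 (after thinning 3 and 2). For the receptor of interleukin-7, Il7r, the counts were 9 of 15 and 10 of 15, and for S1pr1, which guides exit from tissue, 6 of 15 and 7 of 15. These cells come from the same 2 pools and the division used a gene of the same cells, so the counts are a description.

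A UMI of Ncr1 or Klrb1c was found in 4 P2ry12-low cells, 2 in each library, while the NK and T cell receptor genes Klrd1 and Klrk1 were found in 17 and 14 of the 33. With control peptide, both cells with Ncr1 or Klrb1c had no CD3 UMI, and met the rule through Nkg7 with 8 and 5 UMIs. They carried 8 and 9 UMIs of Ncr1, which encodes the activating NK receptor NKp46, with 10 and 5 of Klrb1c. The second of these also had 27 UMIs of Trbc1, 12 of Il7r and 23 of the MHC class II gene H2-Aa. With APOE130-149, 1 cell had 10 CD3 UMIs together with 7 of Ncr1, 12 of Klrb1c, 20 of Gzma and 22 of Trbc1, and another had 14 CD3 UMIs, 4 of Klrb1c and 38 of Trbc2. A γ chain constant gene (Tcrg-C1, Tcrg-C2 or Tcrg-C4) had a UMI in 4 of the 33 cells, and Trdc of the δ chain in none. Among P2ry12-high cells, Trdc had 13 UMIs in 1 cell with control peptide and 3 in 1 cell with APOE130-149, beside 7 and 3 CD3 UMIs. Variable segments of receptor genes were seen in 15 of the 50 cells and from 13 of 176 segments in the feature table. The most frequent, Trgv2, appeared in 3 cells, and Trav13-2 and Trav16 in 2 each.

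Foxp3, the transcription factor of regulatory T cells, had 2 UMIs in 1 P2ry12-low cell, which also had 28 CD3 UMIs, 3 of Il1rl1, 8 of Gzmb and 25 of the proliferation gene Mki67. It was also found in 4 P2ry12-high cells, 2 with control peptide and 2 with APOE130-149. Both of the latter carried Gzmb, with 4 and 5 UMIs, beside 4 CD3 UMIs each.

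One P2ry12-low cell of the control peptide library went against the label. It met the rule with exactly 3 Nkg7 UMIs and had no UMI of a CD3 gene, Trac, Trbc1 or Trbc2. Among its 37715 UMIs were 613 of Lyz2, 111 of Chil3, 33 of Prtn3, 53 of Mki67 and 56 of Top2a, which are genes of monocyte and granulocyte lineages and of dividing cells. It is called the Lyz2-rich cell here, and counts of genes and of listed genes in the comparison of the NMOSD libraries are given with it, and without it where they differ. A P2ry12-high cell of the same library had 82472 UMIs, the most of all 50, with 2 Cd3d UMIs, no receptor constant region UMI, 226 UMIs of H2-Aa and 328 of Lyz2. Of the marker lists of other cell types, all 8 basophil and mast cell markers were at 0 in the P2ry12-low cells. The 9 B cell markers summed to 149 CPM with 6 of them at 0, and the 8 conventional dendritic cell markers to 39.6 CPM with 5 at 0. The 8 monocyte markers summed to 5529 CPM with control peptide and 2161 CPM with APOE130-149, and they include Ly6c2, which memory Cd8 T cells also carry. The part of these cell types in the levels was not tested.

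**Figure D3:**
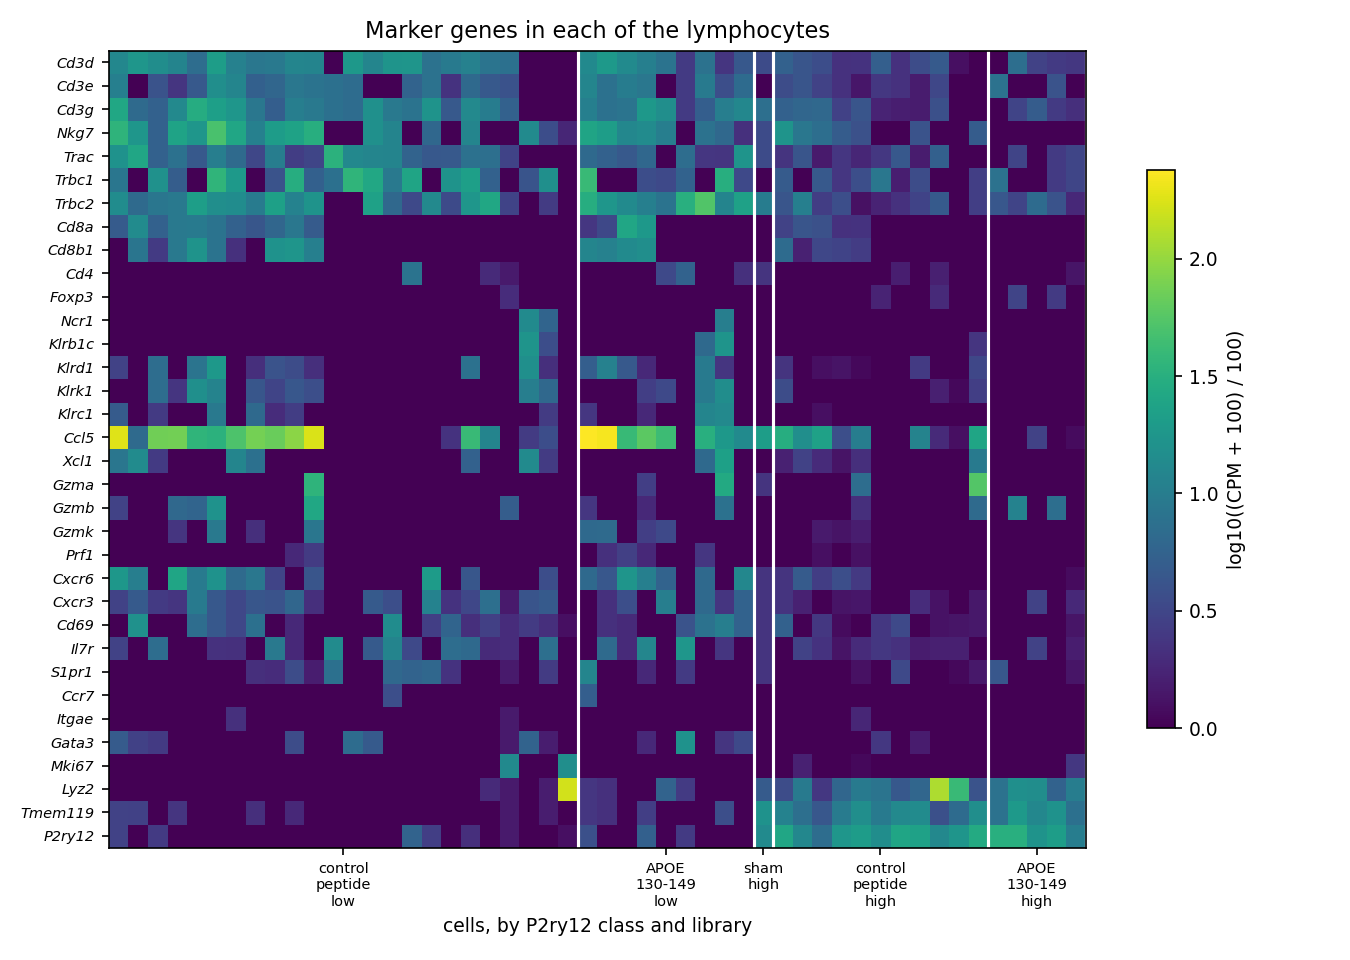
Each column is 1 of the 50 lymphocytes, ordered by P2ry12 class, library, coreceptor and depth, and each row is a gene; colour gives log10((CPM + 100) / 100). The brightest Ccl5 columns are cells with Cd8a or Cd8b1, Ncr1 stands in 3 columns, and the Lyz2-rich cell is the last column of the first block.

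Markers of residence, activation and recirculation were mixed. Cd69, an early activation and residence marker, was detected in 15 of 24 control peptide and 6 of 9 APOE130-149 cells, and in 1.83% of reference cells. Cxcr3, a receptor for interferon-induced chemokines, was detected in 20 of 24 and 6 of 9 cells, and in 1.71% of reference cells. Itgae, the integrin chain of epithelial resident T cells, was detected in 2 of 24 and 0 of 9 cells, and in 2.18% of reference cells. Ccr7, which guides naive T cells to lymph nodes, was detected in 1 of 24 and 1 of 9 cells, and in 0.242% of reference cells. Il7r is no lymphocyte marker here by detection alone, since 37.3% of reference cells had a UMI of it, but its level was 264 CPM in the P2ry12-low cells against 67.4 CPM. No member of the 12 inhibitory receptor genes, such as Pdcd1, Ctla4 and Lag3, reached 20 UMIs over the P2ry12-low cells of both NMOSD libraries.

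The comparison of APOE130-149 with control peptide asks whether lymphocytes of NMOSD mice differed with the peptide given. It rests on 9 and 24 P2ry12-low cells, with 72655 and 230068 UMIs. Of 2171 genes with at least 20 UMIs over both libraries, 110 (5.07%) were at least 2-fold higher with APOE130-149 and 242 (11.1%) at least 2-fold lower. Without the Lyz2-rich cell, 1856 genes reached 20 UMIs, of which 109 (5.87%) were higher and 138 (7.44%) lower. Counts within the gene lists below stand beside these shares over all genes. The Lyz2-rich cell alone held 16.4% of the UMIs of the control peptide cells. A few cells supplied most UMIs of several genes. The share of mitochondrially encoded UMIs also differed, with a median of 3.02% per cell with control peptide and 1.5% with APOE130-149, and its part in the levels was not tested.

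Few receptor and coreceptor genes were 2-fold apart between the libraries. Of the 25 genes of T cell receptor signalling, 20 were measured, 1 was at least 2-fold higher and 0 lower, with a median log2 ratio of 0.37 against -0.02 over all genes measured (0.11 without the Lyz2-rich cell, when 0 were higher and 1, Themis, lower). A share of 1 in 20 genes is near the 5.07% over all genes. The gene that was higher was Trbc2, the constant region of the β chain. With control peptide, Trbc2 in single cells ranged from 0 to 2528 CPM with a median of 846 CPM, and with APOE130-149 from 701 to 5276 CPM with a median of 1689 CPM. Summed, Trbc2 stood at 869 CPM (interval 753 to 999) and 2051 CPM (1735 to 2408), a ratio of 2.36 (1.90 to 2.93). The single cells of both libraries overlapped, and without the Lyz2-rich cell the ratio was 1.97. Trbc1, the alternative constant region of the same chain, had 874 and 826 CPM, a ratio of 0.945 (0.696 to 1.27). Trac had 435 and 523 CPM, a ratio of 1.20 (0.806 to 1.76).

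Cd8a stood at 256 CPM with control peptide and 688 CPM with APOE130-149, a ratio of 2.68 (1.80 to 3.98). A single cell supplied 54.0% of its APOE130-149 UMIs. Cd8b1 stood at 361 and 647 CPM, a ratio of 1.79 (1.23 to 2.59). The share of cells with a Cd8 UMI was near the same in both libraries, 45.8% and 44.4%. Of the 15 genes of T lineage and coreceptors, 5 were measured, with 1 higher, Cd8a, and 1 lower, Ikzf2, and with a median log2 ratio of 0.08 (-0.18 without the Lyz2-rich cell). Ikzf2, which encodes the transcription factor Helios, had 40 UMIs in 9 of 24 control peptide cells and none in the 9 APOE130-149 cells. Against the limit of 3 UMIs per library it was at least 4.21-fold lower with APOE130-149. In single control peptide cells Ikzf2 reached 1664 CPM, and the median of both libraries was 0.

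Ccl5, a chemokine of effector T and NK cells, was the most abundant effector gene in both libraries. In single cells its level ranged from 0 to 18192 CPM with a median of 822 CPM with control peptide, and from 0 to 23786 CPM with a median of 3884 CPM with APOE130-149. Summed, Ccl5 stood at 4008 CPM and 7446 CPM, a ratio of 1.86 (1.67 to 2.07) that did not reach 2-fold. Its ranges overlapped over nearly their whole width, and 1 cell of each library held 35.4% and 36.0% of the UMIs. Among cells with a Cd8 UMI the levels were 8724 and 12361 CPM.

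Of the 18 genes of cytotoxic effectors and lymphocyte cytokines, 11 were measured, 0 were higher and 3 lower, against 11.1% lower over all genes, with a median log2 ratio of 0.12. Without the Lyz2-rich cell 0 were higher and 2 lower, and the median was -0.14. The 3 lower genes were Gzmb, Ccl4 and Lamp1. Gzmb, which encodes the protease granzyme B, stood at 335 CPM with control peptide and 96.3 CPM with APOE130-149. A single control peptide cell held 61.0% of its UMIs there, with 47, and also all 64 UMIs of Gzma. Gzma, which encodes granzyme A, had a ratio of 1.09 (0.638 to 1.79), and 90.9% of its APOE130-149 UMIs were in 1 cell. Ccl4, a chemokine also high in microglia at 166 CPM, stood at 91.3 and 13.8 CPM, the latter from 1 UMI. Lamp1, a lysosomal membrane protein also exposed by degranulating cells, stood at 265 and 110 CPM. The Lyz2-rich cell held part of its control peptide UMIs, and without it Lamp1 stood at 161 CPM there. Prf1, which encodes perforin, had 4 and 5 UMIs and did not reach the 20 UMIs of a measured gene. Ifng, the gene of interferon γ, had none and 3 UMIs.

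Among the 25 NK receptor and regulator genes, 11 were measured, with 2 higher, 1 lower and a median log2 ratio of 0.38 (2, 0 and 0.17 without the Lyz2-rich cell). Over all genes measured, 5.07% were higher and 11.1% lower. Klrb1c, the gene of NK1.1, stood at 65.2 and 220 CPM, a ratio of 3.38 (1.56 to 7.33), each from 2 cells. Klrc1, the gene of the NKG2A chain, stood at 91.3 and 262 CPM, a ratio of 2.87 (1.46 to 5.60), from 7 and 4 cells. The 2 APOE130-149 cells with Klrb1c held 8 and 9 of the Klrc1 UMIs there, and the other cells with Klrc1 held 1 each. With APOE130-149 the levels of Klrb1c and Klrc1 thus rest largely on the same cells. With control peptide they do not, since the cells with 10 and 5 Klrb1c UMIs held 0 and 3 Klrc1 UMIs. Among cells with a Cd8 UMI the order of Klrc1 was the opposite, with 181 CPM with control peptide and 51.8 CPM with APOE130-149. The lower gene was Tyrobp, an adaptor of NK and myeloid cells, at 561 and 275 CPM. The Lyz2-rich cell held 63.6% of its control peptide UMIs, and without it Tyrobp stood at 244 CPM. The activating receptor Klrk1 had 243 and 262 CPM and Klrd1 226 and 330 CPM, neither 2-fold apart.

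Naive and memory genes gave few calls, beside 5.07% higher and 11.1% lower over all genes measured. Of the 12 naive and circulating genes, 9 were measured with 2 higher and 0 lower, Il7r (213 and 427 CPM) and the chromatin organiser Satb1 (86.9 and 206 CPM). Without the Lyz2-rich cell 0 of 8 were higher. Of the 15 tissue-resident and memory genes, 11 were measured with 1 higher, Rgs2 (52.2 and 179 CPM), and 1 lower, the integrin chain gene Itga1 (183 and 82.6 CPM). The Lyz2-rich cell held 40.5% of the control peptide UMIs of Itga1, which stood at 130 CPM without it and was then under 2-fold apart. Without that cell 10 genes of this list were measured, with 1 higher and 1 lower, the lower one not Itga1. A single cell held 76.9% of the Rgs2 UMIs with APOE130-149. Cxcr6 stood at 396 and 716 CPM, a ratio of 1.81 (1.26 to 2.57). Of the 21 helper T and innate lymphoid genes, 3 were measured. Gata3, a factor of type 2 helper T cells and innate lymphoid cells, had 14 UMIs in each library, at 60.9 and 193 CPM, and 71.4% of those with APOE130-149 came from 1 cell.

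The next lists stand beside 5.07% higher and 11.1% lower over all genes measured. Of 16 cytokine receptor genes 8 were measured and 2 were higher, Il7r and Il18r1 (82.6 and 248 CPM), the latter a chain of the interleukin-18 receptor. Without the Lyz2-rich cell Il7r was under 2-fold apart (255 and 427 CPM), so that 1 was higher and 1, Ifnar1, lower. Of 18 chemokine receptor, integrin and migration genes 14 were measured, 0 were higher and 1 was lower, Ccr2, at 274 and 96.3 CPM. The Lyz2-rich cell held 28 of the 63 Ccr2 UMIs with control peptide, and without it Ccr2 was under 2-fold apart. Without that cell 1 of the 14 genes was still lower, a gene other than Ccr2. Of 25 type I interferon genes 24 were in the feature table and 12 were measured, with 1 higher and 2 lower. Slfn1 stood at 130 and 358 CPM and Trim30a at 152 and 55.1 CPM. Trim30a stood at 104 CPM with control peptide without the Lyz2-rich cell, and 1 of the genes was higher and 1 lower. Of the 14 MHC class I genes 13 were measured, with 1 higher, the peptide transporter gene Tap2 (95.6 and 193 CPM, ratio 2.02, 0.953 to 4.12), and 0 lower. Tap2 was under 2-fold apart without the Lyz2-rich cell, so that 0 were higher and 1, H2-Q4, lower. H2-K1 stood at 2534 and 2890 CPM.

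Immediate early genes, which cells switch on within minutes of a stimulus, stood lower in lymphocytes than in microglia of both NMOSD libraries. The 23 genes summed to 4042 CPM with control peptide and 5629 CPM with APOE130-149 in the P2ry12-low cells. In microglia reference cells they summed to 3866 CPM in sham, 12071 CPM with control peptide and 16656 CPM with APOE130-149. The P2ry12-high cells, which carried microglial transcripts, summed to 3925 CPM in the sham cell, 10713 CPM with control peptide and 4173 CPM with APOE130-149. In the last of these sets 1 cell held 56066 of the 75482 UMIs. In single P2ry12-low cells the sum ranged from 2255 to 14962 CPM with control peptide and from 2258 to 13469 CPM with APOE130-149. Between the libraries 16 genes were measured, with 3 higher and 2 lower (2 and 2 without the Lyz2-rich cell), against 5.07% and 11.1% over all genes. The lowest ratio was that of Fosb, at 91.3 and 27.5 CPM, the latter from 1 cell. The highest ratio was that of Jund, a component of the AP-1 transcription factor, at 595 and 1335 CPM, a ratio of 2.24 (1.71 to 2.93). In single cells Jund ranged from 0 to 2088 CPM with control peptide and from 417 to 3332 CPM with APOE130-149, and the ranges overlapped. Among cells with a Cd8 UMI Jund was nearly equal, with 654 and 622 CPM.

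The summed levels of cell cycle genes rested on few cells. The direction of their median ratio changed with the cells included, which also changed the genes measured. Of 18 genes 12 were measured, 0 were higher and 9 lower, with a median log2 ratio of -1.45, against 11.1% lower over all genes. Without the Lyz2-rich cell 8 were measured, 0 were higher and 3 lower, with a median of -0.63. The median log2 ratio was 0.83 without cells above 2 times the library median and 0.63 in cells with a Cd8 UMI. Each of these medians rested on only 3 measured genes. In single cells the summed list had a median of 1094 CPM with control peptide and 1805 CPM with APOE130-149. Mki67 was detected in 2 of 24 control peptide cells, the Lyz2-rich cell with 53 UMIs and the Foxp3-bearing cell with 25 UMIs, and in 0 of 9 APOE130-149 cells.

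Among the 10 highest ratios of genes with at least 50 UMIs, those not yet given were Cct6a, a subunit of the TRiC chaperonin (109 and 413 CPM, ratio 3.80, 2.16 to 6.74), Cox17, Peli1, Tmed9, Klf6, Chmp2a and Crlf3. Klf6, a zinc finger factor of the immediate early group, was detected in 16 of 24 and 9 of 9 cells. Among the 10 lowest were Flna, Lmnb1, Tmpo, S100a8, Gpx1, Ankrd12 and the histone genes Hist1h4d and Hist1h1e beside Gzmb. The Lyz2-rich cell alone supplied 80.0% of Gpx1, 83.8% of S100a8, 79.3% of Hist1h4d and 72.3% of Hist1h1e UMIs with control peptide. Lmnb1, Tmpo and Flna also had their highest UMI counts with control peptide in that cell, at 44, 29 and 22. S100a8 is also a gene of the rule that chose the cells. The tenth was Vim, the gene of the intermediate filament vimentin. Vim stood at 869 CPM with control peptide and 138 CPM with APOE130-149, and was detected in 18 of 24 and 3 of 9 cells. In single cells Vim ranged from 0 to 2148 CPM with a median of 536 CPM with control peptide, and from 0 to 810 CPM with a median of 0 with APOE130-149. Summed, Vim was 6.32-fold lower (interval 3.36 to 13.4), and without the Lyz2-rich cell it stood at 619 CPM with control peptide.

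**Figure D4:**
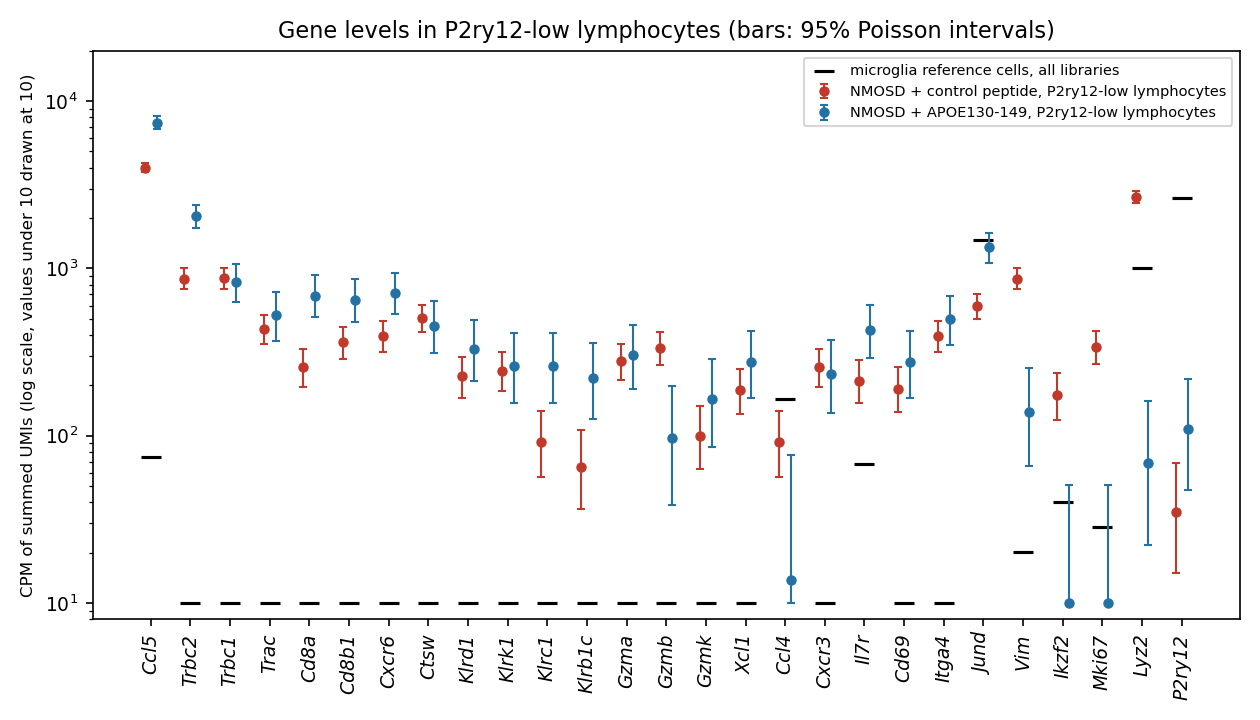
Points give CPM of summed UMIs (log axis) in the P2ry12-low cells of both NMOSD libraries with 95% Poisson intervals, and black dashes give microglia reference cells of all libraries; values under 10 CPM are drawn at 10. Trbc2 and Cd8a lie higher with APOE130-149, and Gzmb and Vim lower. P2ry12 lies far below the reference in both, a gap fixed by the P2ry12 limits that define these sets of cells.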

How the data were processed

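The deposited files held raw UMI counts as 1 matrix of genes by barcodes for each of 3 libraries, filtered for cells by the authors, per the file headers and the values. Cell Ranger 5.0.1, Seurat 4.3.0 and the mm10 build are named in the submitters' processing notes, and cellranger 7.0.1 in the file headers. Which version made the counts, and whether it counted intronic reads or used strand, is not given in the sources used here. Of 12155 barcodes, 11267 passed the filters, with 644 to 289814 UMIs per cell and 31742519 to 60801202 per library.

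UMIs were summed over P2ry12-low cells per library and given as CPM. Shares have Clopper-Pearson intervals, levels Poisson intervals, and ratios exact conditional intervals (95%, counting error only). A gene was measured with at least 20 UMIs over both libraries and counted as higher or lower from 2-fold. A library at 0 was set to a floor of 3 UMIs. Shares of cells with a UMI were repeated with cells thinned to 1500 UMIs (seed 1). Python 3.11.15, numpy 2.4.6, scipy 1.17.1, pandas 2.3.3 and matplotlib 3.10.9 were used, and the ratio interval was tested on simulated data. Coordinates were found for 32158 of 32285 genes in a GRCm38 annotation, the assembly of mm10.

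Genes were named by a rule. It took members of the T lineage, cytotoxic and NK lists with at least 20 UMIs, the 10 highest and 10 lowest ratios among genes with at least 50 UMIs in at least 5 cells of the higher library and an interval excluding 1, the highest and lowest member of every other list, the 25 highest ratios over reference cells among genes at 100 CPM or more, and microglia markers. It left out mitochondrially encoded, ribosomal, haemoglobin and predicted genes and receptor variable segments. Single cells, genes named for their detection and genes named for a count were chosen after their values were seen. The cells, marker lists and gene lists were chosen with earlier results of these data known. No comparison of levels with sham was made, since sham had no P2ry12-low cell. Some genes that this rule names are not reported here.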

Additional observations from a re-analysis of the deposited data

Results flagged for a closer look

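Besides the 50 lymphocytes, 13 cells met the CD3 or Nkg7 threshold but had 1% or more of their UMIs from the neutrophil genes S100a8 and S100a9, and the rule left them out. They are listed because they carry a lymphocyte transcript outside the cells described above. There were 10 in the NMOSD libraries, 7 with control peptide and 3 with APOE130-149, against 3 in the sham library. Their median depth was 18111 UMIs, and 12 of the 13 had P2ry12 under 500 CPM. The sham library thus held more of these cells than of lymphocytes. The difference between libraries was not tested.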

How the results depend on the processing

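With 1 library per group no result could be tested, and the levels rest on 9 and 24 cells. The sham share was the lowest under every rule tried, while the order of the NMOSD shares changed between rules. With 1 CD3 UMI enough, they became 0.236% in sham, 1.06% with control peptide and 1.43% with APOE130-149, and with cells thinned to 1500 UMIs, an alternative added after seeing the data, 0% in sham. P2ry12-low cells were 48.6% of control peptide lymphocytes when no P2ry12 UMI was allowed, against 68.6%.

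The counts of genes higher and lower with APOE130-149, 110 and 242 of 2171 (5.07% and 11.1%), moved with the setting. The number of genes measured changed as well, so each count stands beside its share. Over all lymphocytes the counts were 266 and 726 of 5377 (4.95% and 13.5%). With at least 50 UMIs they were 17 and 55 of 756 (2.25% and 7.28%). With at least 5 UMIs they were 920 and 760 of 6434 (14.3% and 11.8%). At 1.5-fold they were 349 and 463 of 2171 (16.1% and 21.3%). Genes higher were 262 of 2977 (8.80%) with P2ry12 under 1000 CPM and 166 of 2171 (7.65%) for the mean of single cells. Genes lower were 110 of 1640 (6.71%) with the CD3 criterion alone and 78 of 1387 (5.62%) without cells above 2 times the library median. Added after seeing the data, leaving out the Lyz2-rich cell gave 138 of 1856 lower (7.44%). Cells with a Cd8 UMI, also added then, gave 37 of 890 higher (4.16%) and 99 lower (11.1%).

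The median log2 ratio of the cell cycle genes turned to 0.83 without cells above 2 times the library median. It turned to 0.63 in cells with a Cd8 UMI, and each of these medians rested on only 3 measured genes. Log2 ratios that turned were Lamp1 at 0.52 with P2ry12 under 1000 CPM, Klrc1 at -1.81 and Jund at -0.073 in cells with a Cd8 UMI, and Gpx1 at 0.088 without cells above 2 times the library median. Tyrobp turned to 0.55 with P2ry12 under 1000 CPM, 1.28 with the CD3 criterion alone, 0.088 without cells above 2 times the library median and 0.17 without the Lyz2-rich cell. Hist1h4d turned to 0.011 with the CD3 criterion alone and 0.042 without the Lyz2-rich cell. Over all lymphocytes Klf6 stood at -0.0087, Jund at -0.57 and Rgs2 at -0.81. The cause of these changes was not tested. Of the other values for named genes, 748 kept their call and their size and 217 moved without a change of sign. No paired analysis was possible because each group is 1 library.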
